A study of Mus musculus with 8 samples.

Results

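Levels of 10 genes that move amino acids across the plasma membrane were followed through 3 states of the early mouse embryo: Slc7a1, Slc7a2, Slc7a3, Slc7a5, Slc7a6, Slc7a7, Slc7a11, Slc3a2, Slc1a4 and Slc1a5. They were chosen by gene symbol from the solute carrier families Slc7, Slc3 and Slc1, with the line of highest mean level where a symbol was repeated, and they are 10 of the 38924 genes in the deposited table. All 10 were among the 17698 genes tested, those with 2 or more libraries at a value of 1 or above. RNA sequencing was done on pools of about 50 C57BL/6 embryos, labelled female, which the labels describe as biological triplicates or duplicates. The 3 groups were inner cell mass (ICM) of day 3.5 blastocysts (n = 3), ICM from diapaused blastocysts (n = 3) and epiblast from post-implantation embryos at day 6.5 (n = 2). Blastocysts came from superovulated females. Diapause was brought on with tamoxifen and 0.5 mg of Depo Provera, a progestin, on day 3.5, and those blastocysts were collected 5 days later. The trophectoderm, the outer layer of the blastocyst, was lysed with antibody and complement, and a kit made for minute amounts of RNA was used to amplify it. Arrest, the 5 days spent in the uterus and the hormone treatment all set diapaused ICM apart from ICM, and cannot be told apart here.

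The Slc7 family holds carriers of 2 kinds. The cationic carriers Slc7a1, Slc7a2 and Slc7a3 (proteins known as CATs) work alone and take up arginine, lysine and ornithine. The light chains Slc7a5, Slc7a6, Slc7a7 and Slc7a11 carry the substrate but reach the cell surface only when bound to a heavy chain, the glycoprotein encoded by Slc3a2, also called CD98. Slc1a4 and Slc1a5, known as ASCT carriers, exchange small neutral amino acids such as alanine, serine, cysteine and glutamine together with sodium. Amino acids taken up by such carriers feed protein synthesis and the growth kinase mTOR, and lowered mTOR activity is known to place mouse blastocysts in a state like diapause. Several of these genes are known targets of ATF4, the transcription factor induced by amino acid shortage, and Slc7a11 is also a known target of the oxidative stress factor NRF2.

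Promoters of 6 of the 10 genes, Slc7a1, Slc7a6, Slc7a7, Slc7a11, Slc3a2 and Slc1a4, were found in a RefSeq table of mouse build GRCm38.p6, as 12 windows of the 250 bases before a transcript start. They were searched on both strands for the C/EBP-ATF response element, TGATGNAA, where ATF4 is known to bind, and for the antioxidant response element, TGACNNNGC, where NRF2 is known to bind. Among all 32851 such windows in the table, 3.45% held the first and 10.2% the second. Of the 12 windows, 3 held the C/EBP-ATF element, from Slc7a11 and Slc7a7, and 2 held the antioxidant element, from Slc7a1 and Slc7a6. Some windows of the same gene overlap. In 8 of the 12, the bases after the start lay in an annotated transcript of the gene. Printed below is 1 window of each of 3 genes. The Slc7a11 window held 2 matches of the C/EBP-ATF element, that of Slc7a1 held 1 of the antioxidant element, and that of Slc1a4 held neither. Whether a match bears on the level of a gene was not tested. These windows were picked with the levels of their genes known. They lie at chr3:50443614-50443863, chr5:148399905-148400154 and chr11:20332714-20332963, all on the minus strand, and are written 5′ to 3′ towards the start, with matches in capitals.
Slc7a11: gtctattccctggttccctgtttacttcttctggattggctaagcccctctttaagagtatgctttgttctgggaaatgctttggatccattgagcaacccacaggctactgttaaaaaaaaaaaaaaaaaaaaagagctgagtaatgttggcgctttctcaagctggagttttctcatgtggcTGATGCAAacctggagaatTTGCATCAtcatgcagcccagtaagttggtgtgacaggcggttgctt
Slc7a1: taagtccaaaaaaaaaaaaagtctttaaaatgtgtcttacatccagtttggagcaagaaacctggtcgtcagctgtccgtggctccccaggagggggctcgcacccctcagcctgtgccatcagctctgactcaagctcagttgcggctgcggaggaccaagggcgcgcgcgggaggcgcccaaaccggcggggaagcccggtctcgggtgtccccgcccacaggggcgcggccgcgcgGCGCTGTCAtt
Slc1a4: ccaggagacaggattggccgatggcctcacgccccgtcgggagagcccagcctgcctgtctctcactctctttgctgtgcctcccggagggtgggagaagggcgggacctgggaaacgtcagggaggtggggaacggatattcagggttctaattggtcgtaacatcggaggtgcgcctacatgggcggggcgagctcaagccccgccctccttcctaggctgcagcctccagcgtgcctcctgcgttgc
In the Slc7a11 window, the matches began 66 bases before the start on the printed strand and 47 bases before it on the other. The match in the Slc7a1 window, of the antioxidant element, began 11 bases before the start on the other strand. A match describes the letters in these windows, not a bound site.

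Values are the authors' adjusted TPM, a level per transcript length adjusted in a way not given in the sources used here, and their sums ran from 720674 to 1179026 per library. Sequencing depth is unknown, so no counting interval could be given. The labels were set against markers of the cells each pool could hold. Of the 10 epiblast and pluripotency markers, summed levels were 518 to 859 in ICM, 375 to 481 in diapaused ICM and 553 to 913 in epiblast. The 15 primitive endoderm markers, genes of the layer that lines the ICM, summed to 604 to 756 in ICM, 1858 to 2211 in diapaused ICM and 74.3 to 76.9 in epiblast, and 12 of them rose and 1 fell in diapaused ICM against ICM. The 13 visceral endoderm markers, 7 of them tested, summed to 27.0 to 39.5 in ICM, 570 to 584 in diapaused ICM and 308 to 422 in epiblast. They did not move together in diapaused ICM against ICM. Rhox5 (log2 fold change 4.37) and Dkk1 (1.41) rose, Hnf4a fell (-1.44), and the other 4 tested were not called. In epiblast against ICM, Ttr, Apoa1, Apob and Rhox5, 4 of the 7, were higher, and 2, Hnf4a and Dkk1, were lower. Of all genes tested, 16.7% were called higher and 13.3% lower there. Ttr, Apoa1 and Apob were also higher in epiblast than in diapaused ICM, and Rhox5 and Dkk1 were lower. The 15 trophectoderm markers, 11 of them tested, summed to 44.6 to 69.4 in ICM and 67.3 to 74.6 in epiblast. In diapaused ICM they summed to 69.3, 61.3 and, in replicate 3, 196.3, where the keratin gene Krt18 was at 120.8. Of the 11 tested, 1 rose in diapaused ICM against ICM and 0 fell. It was Gata3 (log2 fold change 1.95, limma adjusted p = 0.00943), a call lost only with no filter on low values. The 12 blood and immune markers in the table summed to 47.8 to 137.5 in diapaused ICM and at most 10.2 elsewhere. The 2 tested, Cd68 and Laptm5, rose in diapaused ICM against ICM, while Ptprc, Csf1r and C1qa were under 0.5 in every library. The 12 uterine markers, 3 of them tested, summed to 17.3 to 29.5 in diapaused ICM, 66.1 to 95.2 in ICM, and 8.69 and 7.95 in epiblast. Ltf, Pgr and Esr1 were under 0.5 in every library. Of the 3 tested only Pecam1 was called, lower than in ICM in diapaused ICM (-2.33) and in epiblast (-4.59). Whether the sum in ICM came from uterine cells was not tested. In such bulk pools, fewer cells of a type and less RNA per cell cannot be told apart, and the part of these cell types in the results that follow was not tested.

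Against ICM, diapaused ICM had higher levels of 3 of the 10 transporters, Slc7a1, Slc7a2 and Slc1a4, and a lower level of none at an adjusted p under 0.05. At an unadjusted p under 0.05 the counts were 5 higher and 1 lower. The 3 calls held under all 11 other settings and on leaving out each of the 8 libraries in turn. Of all genes tested, 7.52% were called higher and 5.81% lower. Groups did not overlap for 5 of the 10 transporters, against 30.7% of all genes, and the median log2 fold change was 0.63 over the transporters and 0.00 over all genes. Adjusted p-values are from limma's moderated test with Benjamini-Hochberg adjustment over all genes tested. Fold changes are differences on the log2(adjusted TPM + 1) scale, given with their standard errors, and understate the change of genes with low levels.

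Epiblast was next set against ICM: Slc7a3 and Slc7a7 were higher and Slc7a1, Slc7a2 and Slc7a6 were lower, so that 5 of the 10 were called. Of all genes, 16.7% were called higher and 13.3% lower. Groups did not overlap for 5 transporters, against 59.0% of all genes, and the median log2 fold change was 0.02 over the transporters and 0.14 over all genes.

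Between diapaused ICM and epiblast 7 of the 10 were called. Slc7a1, Slc7a2, Slc7a5, Slc7a6 and Slc1a4 were higher in diapaused ICM, and Slc7a3 and Slc7a7 were lower. Of all genes, 16.0% were called higher and 18.6% lower. Groups did not overlap for 7 transporters, against 61.4% of all genes, and the median log2 fold change was 1.20 over the transporters and -0.11 over all genes. The 3 comparisons share libraries, so they are given side by side and not as independent evidence.

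**Figure D1:**
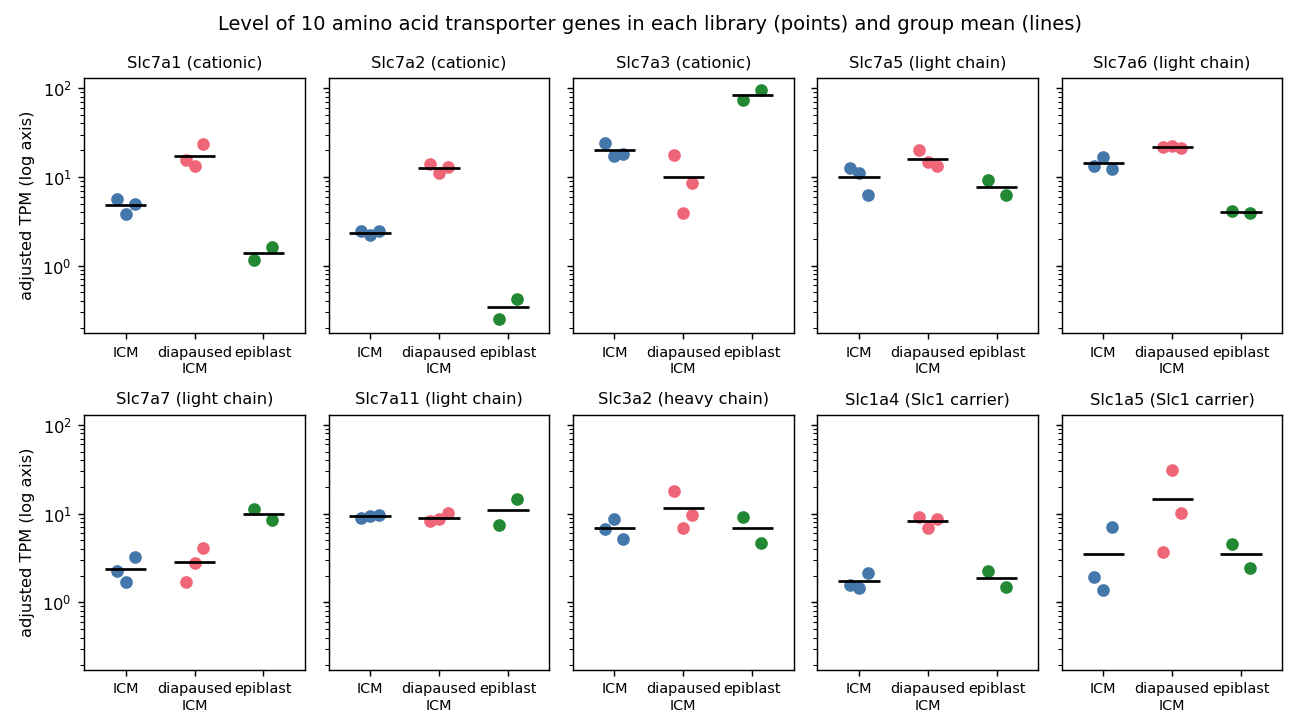
Adjusted TPM (log axis) of the 10 transporter genes in each of the 8 libraries, 1 panel per gene, with points for libraries and a line for each group's mean. Slc7a1, Slc7a2 and Slc1a4 had all 3 diapaused ICM libraries above every other library, Slc7a3 and Slc7a7 were highest in both epiblast libraries, and Slc7a11 overlapped in all groups.

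**Figure D2:**
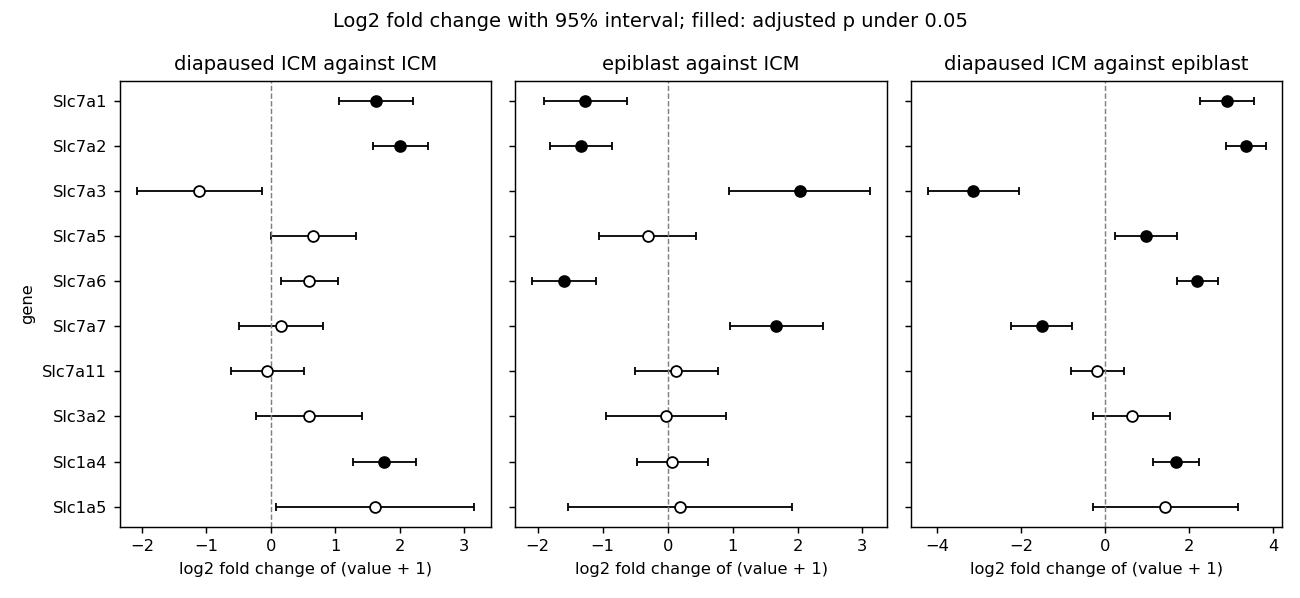
Log2 fold change of the 10 transporters on the log2(adjusted TPM + 1) scale in the 3 comparisons, with 95% confidence intervals, filled where the adjusted p was under 0.05. Slc7a1 and Slc7a2 were called in all 3 comparisons, and Slc7a11, Slc3a2 and Slc1a5 in none.

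The cationic carriers did not move together. Slc7a1 (ENSMUSG00000041313), the broadly expressed arginine and lysine carrier, was at 5.63, 3.80 and 4.98 in ICM, 15.6, 13.1 and 23.2 in diapaused ICM, and 1.17 and 1.62 in epiblast. No library of one group reached those of another, and the order was diapaused ICM, ICM, epiblast. The mean was 4.80 ± 0.926 (SD, n = 3) in ICM and 17.3 ± 5.25 (SD, n = 3) in diapaused ICM, a ratio of 3.60 and a log2 fold change of 1.63 ± 0.25 (adjusted p = 0.00385). In epiblast the mean was 1.40 ± 0.319 (SD, n = 2), lower than in ICM by a log2 fold change of -1.27 ± 0.28 (adjusted p = 0.0109). That call was lost without epiblast replicate 1 (adjusted p = 0.0931). Diapaused ICM was above epiblast by 2.90 ± 0.28 (adjusted p = 0.000193).

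Slc7a2 (ENSMUSG00000031596), a cationic carrier best known from liver and macrophages, followed the same order. Its levels were 2.46, 2.20 and 2.44 in ICM, 14.1, 10.9 and 12.8 in diapaused ICM, and 0.253 and 0.427 in epiblast. The 3 groups were again apart in every library, and the epiblast libraries lay below the value of 1 used for filtering. The mean rose from 2.37 ± 0.144 in ICM to 12.6 ± 1.57 in diapaused ICM, a ratio of 5.33 and a log2 fold change of 2.01 ± 0.19 (adjusted p = 0.000312). Epiblast was lower than ICM by a log2 fold change of -1.33 ± 0.21 (adjusted p = 0.0022) and diapaused ICM was above epiblast by 3.34 ± 0.21 (adjusted p = 2.3e-05). In the GENCODE annotation, 635 of the 9135 exon bases of Slc7a2 also lie in the opposite-strand gene Gm26584. Gm26584 was at 2.94, 0.342 and 0.338 in diapaused ICM and 1.28 to 1.38 in ICM. Both genes were highest in diapaused ICM replicate 1, and Gm26584 lay below ICM in replicates 2 and 3. The part of the shared bases in the level of Slc7a2 was not tested. Strand use in counting is not stated in the labels or headers.

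Slc7a3 (ENSMUSG00000031297), the third cationic carrier, best known from brain, had the reverse order. Its levels were 24.4, 17.3 and 18.3 in ICM, 17.8, 3.95 and 8.47 in diapaused ICM, and 73.8 and 95.1 in epiblast. Diapaused ICM replicate 1 lay within the ICM range and replicates 2 and 3 lay below it, while both epiblast libraries stood far above all others. The epiblast mean was 84.4 ± 15.1, against 20.0 ± 3.85 in ICM, a ratio of 4.23 and a log2 fold change of 2.03 ± 0.48 (adjusted p = 0.0136). That call was lost without epiblast replicate 1 (adjusted p = 0.0635), without epiblast replicate 2 (adjusted p = 0.0873) and with no filter on low values (adjusted p = 0.0695). Diapaused ICM was below epiblast by a log2 fold change of -3.15 ± 0.48 (adjusted p = 0.00156). Between diapaused ICM and ICM the log2 fold change was -1.11 ± 0.43, with a 95% interval of -2.08 to -0.14 and an adjusted p of 0.13, and it passed the threshold without diapaused ICM replicate 1 (-1.60, adjusted p = 0.0218). It also passed when libraries were rescaled without the most abundant genes (-1.41, adjusted p = 0.0459).

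Added together, the cationic carriers reached 32.5, 23.3 and 25.7 in ICM, 47.4, 28.0 and 44.4 in diapaused ICM, and 75.2 and 97.1 in epiblast. The makeup of that sum differed between groups. Slc7a3 gave 73.5 ± 2.08% of it in ICM, 23.5 ± 12.3% in diapaused ICM and 98.0 ± 0.154% in epiblast. Slc7a1 gave 17.7 ± 1.56%, 44.0 ± 9.97% and 1.61 ± 0.0806%, and Slc7a2 gave 8.84 ± 1.09%, 32.5 ± 5.70% and 0.388 ± 0.073%. The ratio of Slc7a1 to Slc7a3 levels was 0.231, 0.220 and 0.273 in ICM, 0.877, 3.32 and 2.74 in diapaused ICM, and 0.0159 and 0.0171 in epiblast, so no group overlapped another. These shares and ratios are descriptions, with no test.

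**Figure D3:**
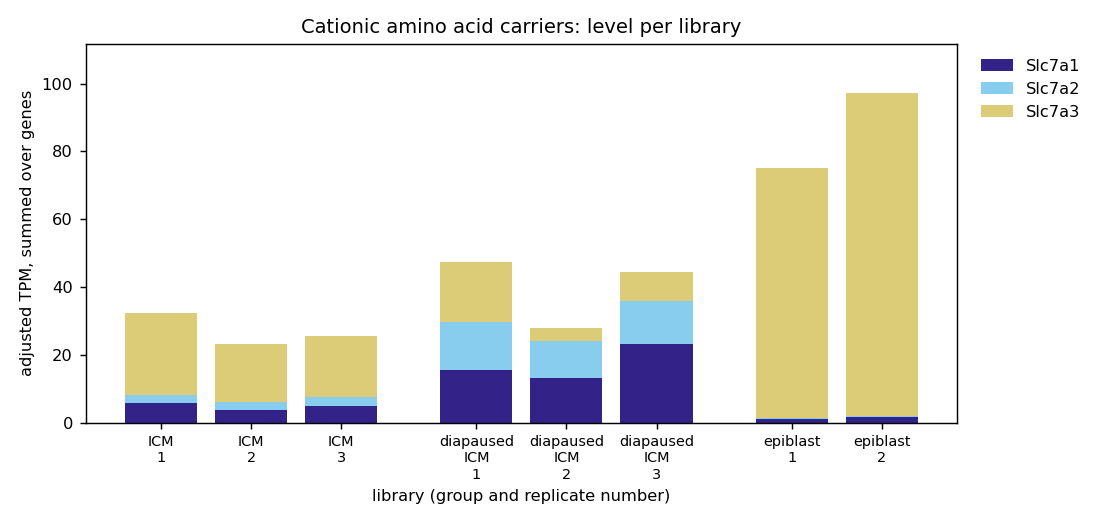
Stacked bars of the levels of Slc7a1, Slc7a2 and Slc7a3 in adjusted TPM, 1 bar per library, with group and replicate number on the x axis. Slc7a3 made up 71.1 to 75.1% of the sum in ICM and 97.9 to 98.1% in epiblast, but 14.1 to 37.5% in diapaused ICM, where Slc7a1 and Slc7a2 held the rest.

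Among the light chains, Slc7a6 and Slc7a7, each bound to Slc3a2, exchange cationic for neutral amino acids and sodium. Slc7a6 (ENSMUSG00000031904) was at 13.3, 16.8 and 12.4 in ICM, 21.7, 22.4 and 21.2 in diapaused ICM, and 4.08 and 3.91 in epiblast. The diapaused libraries lay closer together than those of ICM, and no group overlapped another. Epiblast was lower than ICM by a log2 fold change of -1.59 ± 0.22 (adjusted p = 0.00108), a ratio of means of 0.282, and lower than diapaused ICM, which stood above it by 2.19 ± 0.22 (adjusted p = 0.00021). The difference between diapaused ICM and ICM, 0.60 ± 0.20 with a 95% interval of 0.15 to 1.04, did not pass the threshold (adjusted p = 0.0807).

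Slc7a7 (ENSMUSG00000000958), the other such exchanger, known from epithelia and macrophages, went the other way in epiblast. It was at 2.24, 1.70 and 3.28 in ICM, 1.70, 2.81 and 4.06 in diapaused ICM, and 11.1 and 8.42 in epiblast. The 2 blastocyst groups overlapped and the epiblast libraries lay above both. The mean of 9.77 ± 1.92 in epiblast was 4.06 times that of ICM, a log2 fold change of 1.68 ± 0.32 (adjusted p = 0.00541), and diapaused ICM was below epiblast by -1.52 ± 0.32 (adjusted p = 0.0073). Without epiblast replicate 1, both calls were lost (adjusted p = 0.0596 and 0.067). Diapaused ICM against ICM gave 0.16 ± 0.29, with an interval of -0.49 to 0.80 (adjusted p = 0.783). Exons of Slc7a7 share 232 of 3315 bases with the opposite-strand gene Oxa1l, which was at 5.37 to 6.98 in ICM, 9.02 to 11.8 in diapaused ICM and 5.45 to 5.66 in epiblast.

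Slc7a5 (ENSMUSG00000040010), the carrier known as LAT1 that brings in leucine and other large neutral amino acids, varied less. Its levels were 12.7, 11.0 and 6.33 in ICM, 20.0, 14.8 and 13.3 in diapaused ICM, and 9.22 and 6.23 in epiblast. All diapaused libraries were above all others, and ICM and epiblast overlapped. Diapaused ICM was above epiblast by 0.97 ± 0.33 (adjusted p = 0.0479), a call just inside the threshold that 5 of 11 other settings and 1 of 8 fits leaving out a library kept, with adjusted p from 0.0151 to 0.263. Against ICM, diapaused ICM gave 0.66 ± 0.29, with an interval from just under 0 to 1.32 (adjusted p = 0.185), and epiblast gave -0.31 ± 0.33 (adjusted p = 0.509).

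Slc7a11 (ENSMUSG00000027737), known as xCT, takes up cystine in exchange for glutamate and so supplies glutathione synthesis. It was at 8.97, 9.43 and 9.71 in ICM, 8.32, 8.64 and 10.1 in diapaused ICM, and 7.35 and 14.6 in epiblast. All groups overlapped, and the epiblast libraries were the lowest and the highest of the 8. The log2 fold change was -0.05 ± 0.25 in diapaused ICM against ICM, with a 95% interval of -0.62 to 0.51 (adjusted p = 0.925), so a change as large as those of Slc7a1 and Slc7a2 lies outside it. For epiblast against ICM it was 0.14 ± 0.28, with an interval of -0.50 to 0.77 (adjusted p = 0.741).

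The heavy chain Slc3a2 (ENSMUSG00000010095) was at 6.76, 8.77 and 5.13 in ICM, 17.8, 6.96 and 9.75 in diapaused ICM, and 9.20 and 4.66 in epiblast. Diapaused ICM replicate 1 was the highest library replicate 2 lay within the ICM range, and replicate 3 lay just above both other groups. The log2 fold changes were 0.60 ± 0.36 in diapaused ICM against ICM, with an interval of -0.23 to 1.42 (adjusted p = 0.337), and -0.03 ± 0.41 in epiblast against ICM, with an interval of -0.95 to 0.89 (adjusted p = 0.966). Diapaused ICM against epiblast gave 0.63 ± 0.41 (adjusted p = 0.257).

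The 4 light chains together reached 37.2, 38.9 and 31.7 in ICM, 51.7, 48.6 and 48.6 in diapaused ICM, and 31.8 and 33.1 in epiblast. The diapaused sum was above every other library, while ICM and epiblast overlapped. Their makeup differed between groups: Slc7a6 gave 39.3 ± 3.66% of the sum in ICM, 43.9 ± 2.05% in diapaused ICM and 12.3 ± 0.725% in epiblast, and Slc7a7 gave 6.91 ± 3.09%, 5.81 ± 2.53% and 30.2 ± 6.79%. The light chains together stood at 4.43 to 6.18 times the level of Slc3a2 in ICM, 2.91 to 6.99 times in diapaused ICM and 3.46 to 7.11 times in epiblast, ranges that all overlapped.

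**Figure D4:**
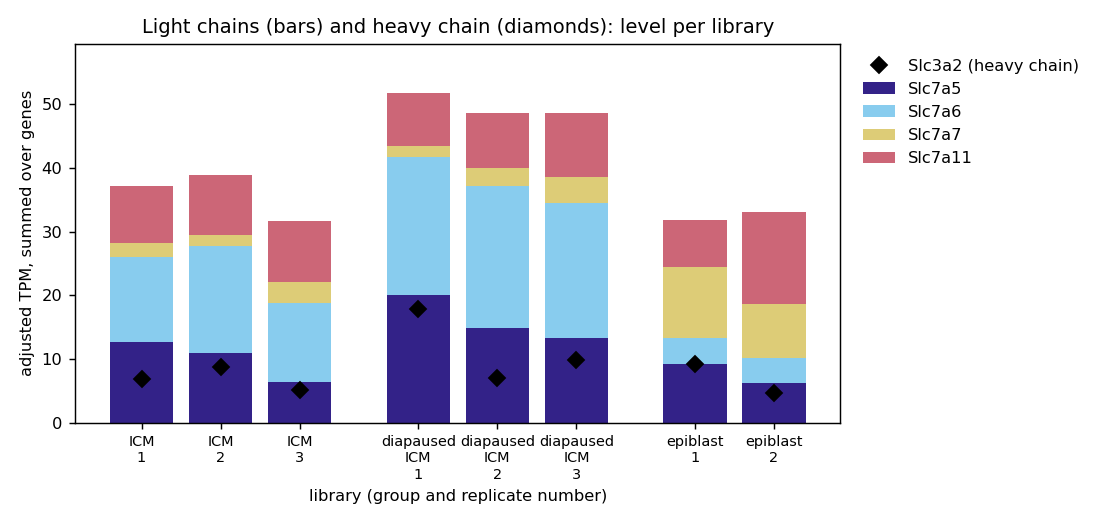
Levels in adjusted TPM, 1 stacked bar per library for the 4 light chains and a diamond for the heavy chain Slc3a2, with group and replicate number on the x axis. Slc7a6 was at 21.2 to 22.4 in diapaused ICM and 3.91 to 4.08 in epiblast, Slc7a7 was highest in epiblast at 8.42 and 11.1, and Slc7a11 and Slc3a2 overlapped between groups.

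Of the neutral carriers, Slc1a4 (ENSMUSG00000020142), or ASCT1, which exchanges alanine, serine and cysteine, was higher in diapaused ICM than in both other groups. It was at 1.57, 1.44 and 2.15 in ICM, 9.27, 6.83 and 8.58 in diapaused ICM, and 2.25 and 1.49 in epiblast. ICM and epiblast overlapped, and every diapaused library was above them. The mean rose from 1.72 ± 0.376 in ICM to 8.23 ± 1.26 in diapaused ICM, a ratio of 4.78 and a log2 fold change of 1.76 ± 0.22 (adjusted p = 0.00115). Against epiblast the ratio was 4.41 and the log2 fold change 1.69 ± 0.24 (adjusted p = 0.00112). Epiblast against ICM gave 0.07 ± 0.24, with an interval of -0.47 to 0.62 (adjusted p = 0.848).

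Slc1a5 (ENSMUSG00000001918), or ASCT2, the main glutamine exchanger of many dividing cells, was uneven within groups. It was at 1.92, 1.38 and 7.13 in ICM, 3.69, 30.6 and 10.1 in diapaused ICM, and 4.59 and 2.42 in epiblast. ICM replicate 3 was the highest ICM library and diapaused ICM replicate 2 the highest of all, and diapaused ICM replicate 1 lay within the ICM range. The ratio of means in diapaused ICM against ICM was 4.25, close to that of Slc1a4, but the log2 fold change of 1.62 ± 0.68 had an interval of 0.08 to 3.16 and an adjusted p of 0.162. Diapaused ICM against epiblast gave 1.43 ± 0.76 (adjusted p = 0.172), and passed without diapaused ICM replicate 1 (2.10, adjusted p = 0.0457).

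By level per transcript length, the order of the 10 genes differed between groups. In ICM the highest were Slc7a3 (20.0, above 79.5% of tested genes) and Slc7a6, and the lowest was Slc1a4 (1.72, above 28.4%). In diapaused ICM Slc7a6 (21.8, above 80.8%) and Slc7a1 (17.3) were highest and Slc7a7 (2.86, above 41.7%) lowest. In epiblast Slc7a3 (84.4, above 91.6%) stood far above the next, Slc7a11 (10.95 ± 5.09), and Slc7a2 (0.340, above 6.48%) was lowest. The sum of all 10 was 75.2 ± 4.24 in ICM, 124.1 ± 5.00 in diapaused ICM and 130.9 ± 11.2 in epiblast. Of the 9 neighbouring pairs in each order, the gap was no larger than the sum of their SDs in 7 pairs in ICM, 8 in diapaused ICM and 7 in epiblast.

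For 9 of the transporters, the gene whose log2 levels over the 8 libraries were most like theirs was named by the smallest root mean square difference after each gene's mean was subtracted. Genes with symbols that start with Gm and a digit, Mir, Snor or Rn, or end in Rik, were not considered. For Slc7a2 it was Asns, asparagine synthetase (difference 0.205, against a spread of 1.34 for Slc7a2 itself). Asns was at 34.3, 35.1 and 49.1 in ICM, 181.4, 154.8 and 146.6 in diapaused ICM, and 12.0 and 11.9 in epiblast. For Slc7a1 it was Klf6 (0.197), for Slc1a4 Lamb2 (0.145), for Slc7a7 H3f3b (0.156) and for Slc7a3 Tead2 (0.422). For Slc7a5, Slc7a11, Slc3a2 and Slc1a5 the nearest were Atox1 (0.173), Hnrnpll (0.13), Shoc2 (0.204) and Arl14ep (0.332). The spreads of these transporters themselves were 0.5, 0.247, 0.509 and 1.14, so a small difference says least for Slc7a11. Among the transporters themselves, Slc7a1 and Slc7a2 were each other's nearest (0.282), as were Slc7a5 and Slc3a2 (0.31). Slc7a3 was far from all (nearest Slc7a7, 0.984).

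The same families hold 14 other genes, of which 5 were tested. Slc1a1, a glutamate and cysteine carrier of neurons and epithelia, was at 12.0, 21.7 and 15.5 in ICM, 0.620, 0.644 and 0.806 in diapaused ICM, and 0.113 and 0.125 in epiblast. It was called lower than in ICM in diapaused ICM (-3.33 ± 0.24 on the log2 scale, adjusted p = 7.3e-05) and in epiblast (-3.92 ± 0.26, adjusted p = 2.6e-05), the reverse of Slc1a4 in diapause. The glial glutamate carrier Slc1a3 ranged from 4.61 to 135.6 within diapaused ICM and from 25.8 to 62.3 in ICM, and did not pass the threshold (adjusted p = 0.841 in diapaused ICM against ICM, 0.165 in epiblast against ICM and 0.236 in diapaused ICM against epiblast). Without diapaused ICM replicate 1, where it was lowest, Slc1a3 was called lower in epiblast than in ICM (-2.11, adjusted p = 0.0206) and higher in diapaused ICM than in epiblast (2.95, adjusted p = 0.00821). The first of these also passed with ICM and epiblast alone (adjusted p = 0.0113). Slc1a7, a retinal glutamate carrier, was at 1.22 and 2.62 in epiblast and at most 0.800 elsewhere, with calls close to the threshold against ICM (adjusted p = 0.0484) and diapaused ICM (adjusted p = 0.0372) that several settings lost. Slc1a2 and Slc7a14 passed in no comparison. Slc7a8, the close relative of Slc7a5, was detected at 0.558 to 1.095 in ICM and did not pass the filter, and the other 8, among them the heavy chain gene Slc3a1, were under 0.5 in every library.

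Of 11 other plasma membrane amino acid transporters tested, 2 rose and 0 fell in diapaused ICM against ICM (3 and 0 at an unadjusted p under 0.05), with a median log2 fold change of 0.29. Both were glutamine carriers, Slc38a1 (4.27 ± 0.21) and Slc38a2 (4.03 ± 0.26). For this list and those that follow, the shares of all tested genes were 7.52% higher and 5.81% lower in that comparison. They were 16.7% and 13.3% in epiblast against ICM, and 16.0% and 18.6% in diapaused ICM against epiblast. Of the 11 transporters, epiblast against ICM gave 2 higher and 2 lower. Slc38a1 and Slc38a2 were again higher (3.92 ± 0.24 and 2.80 ± 0.29), whereas Slc7a1 and Slc7a2 were lower. Slc38a4 was lower (-2.03). Between diapaused ICM and epiblast 3 were higher and 0 lower (5 and 0 unadjusted): Slc38a2, Slc38a4 and Slc38a7. The Slc38a2 call was lost without either epiblast library (adjusted p = 0.0755 and 0.065), and that of Slc38a7 (0.90 ± 0.29, adjusted p = 0.0404) in most settings.

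Of 8 lysosomal transporters and carriers tested, not all of them for amino acids, 2 rose and 0 fell in diapaused ICM against ICM (2 and 1 unadjusted). Rescaling to the same total gave 2 and 1 of the 6 then tested. The 2 that rose were Slc17a5, the sialic acid and acidic amino acid exporter (2.47 ± 0.32), and Ctns, the cystine exporter (1.79 ± 0.42, adjusted p = 0.025). The Ctns call was lost without ICM replicate 1, ICM replicate 2 or diapaused ICM replicate 1 (adjusted p 0.0548 to 0.0608). Epiblast against ICM gave 0 higher (also 0 unadjusted) and 1 lower, Spns1 (adjusted p = 0.0471), a call kept in 7 of 11 other settings and 2 of 8 fits leaving out a library (adjusted p up to 0.175). In diapaused ICM against epiblast 3 were higher and 0 lower (4 and 0 unadjusted): Slc17a5, Ctns and Mfsd12. The call of Mfsd12 (1.36, adjusted p = 0.0107) was lost without either epiblast library and that of Ctns (2.15, adjusted p = 0.00904) without epiblast replicate 2.

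Genes of the ATF4 pathway, a list that includes enzymes, tRNA synthetases and stress factors, gave 11 higher and 1 lower of 30 tested in diapaused ICM against ICM, with a median log2 fold change of 0.79. Rescaling libraries to the same total gave 8 higher and 1 lower of the 29 then tested, and a median of 0.65. Asns rose (2.01 ± 0.22, adjusted p = 0.000681), as did the transcription factor genes Atf3 (2.48 ± 0.27) and Atf5 (3.49 ± 0.41), and the stress factor Ddit3 (2.39 ± 0.30). Atf3 was at 3.43, 5.16 and 7.21 in diapaused ICM and at most 0.162 elsewhere. The serine synthesis gene Psat1 fell. Of the same list, in epiblast against ICM, 7 were higher and 5 lower. The higher ones were Atf4, Cebpg, Mthfd2, Mthfd1l, Stc2, Gpt2 and Gars. The lower ones were Asns (-1.63 ± 0.25), Sars (-2.25), Ddit3 (-1.87), Ppp1r15a and Wars. Atf4 itself was not called in diapaused ICM against ICM. Against epiblast, diapaused ICM had 11 higher and 2 lower.

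Genes for cystine use, glutathione and NRF2, the setting in which Slc7a11 works, gave 0 higher and 3 lower of 17 tested in diapaused ICM against ICM (0 and 4 unadjusted). The median log2 fold change was 0.12 over the 17 and 0.00 over all genes, so the list as a whole was not lower. Glutathione synthetase, Gss, was at 10.8, 14.4 and 16.1 in ICM and 0.150, 0.332 and 1.88 in diapaused ICM (-3.15 ± 0.38 on the log2 scale, adjusted p = 0.0011). Ggt1 (-3.75) and Gpx1 (-0.86) were also lower. The Ggt1 call was lost with no filter on low values (adjusted p = 0.0594), and the Gpx1 call on leaving out any of the 6 blastocyst libraries. Epiblast against ICM gave 4 higher and 4 lower. The higher genes included Gclm, a subunit of the enzyme that starts glutathione synthesis (1.73 ± 0.25, adjusted p = 0.00144), and the lower ones Ggt1 (-5.56). Diapaused ICM against epiblast gave 2 higher, among them Gpx4 (2.03), and 4 lower, among them Gsr (-2.64).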

How the data were processed

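RNA sequencing levels of 8 pools of mouse embryonic tissue were used as the authors deposited them: a signal per gene that, per the file headers, is an adjusted TPM. Because the columns differ in their totals, they were treated as a signal with no common scale, and the test planned for TPM was used unchanged. The submitters' processing notes name Bowtie 0.12.5, DESeq and build mm9 but no roles. The counting program, annotation and strand use are not stated there. Read totals are not known, so no precision from depth could be given. Whether the libraries' replicates came from separate matings is not stated, and p-values measure the spread between these pools.

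All values were computed on log2(value + 1). Genes at 1 or more in at least 2 libraries were tested (17698 of 38924), and the line of highest mean was used for each of 204 repeated symbol lines. limma 3.58.1 in R 4.3.3 fitted 8 libraries with a mean per group (trended prior variance with 3.97 degrees of freedom, residual 5). The 3 comparisons were two-sided, with Benjamini-Hochberg adjustment over all tested genes and a threshold of 0.05. The procedure was tested on simulated data. Alternatives were 11 other settings (filters, pseudocounts, scalings, a replicate block, 2 groups alone, no trend, summed lines) and leaving out each of 8 libraries. Where that left 1 epiblast library, it was assumed to vary like the other groups.

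All 10 transporters were named. Of the 8 pathway and 6 marker lists, up to 3 called genes with the smallest adjusted p were named per comparison, plus detected relatives of the transporters and the gene most like each transporter; that for Slc7a6 is not reported here. Ddit3 (in diapaused ICM against ICM), Sec13, Krt18 and the marker genes named at a low level were picked after their values were seen. Also named were all called visceral endoderm markers, all called ATF4 genes in epiblast against ICM, and Atf4 where it was not called. These too were picked after their values were seen. The members, lists and tests were chosen with earlier results of these data known. Promoter sequences are from RefSeq, build GRCm38.p6, and exon overlaps from the GENCODE annotation of GRCm38, not the mm9 build of the notes.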

Additional observations from a re-analysis of the deposited data

How the results depend on the processing

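Of 30 results for single transporters, 17 kept their direction and side of the threshold under all alternatives, among them 10 of the 15 called. The 5 that lost a call were Slc7a1, Slc7a3 and Slc7a7 in epiblast against ICM, and Slc7a5 and Slc7a7 in diapaused ICM against epiblast; Slc7a3 in diapaused ICM against ICM and Slc1a5 in diapaused ICM against epiblast gained one. The cause was not tested.

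Called genes in diapaused ICM against ICM numbered 2360, 1278 with no filter on low values, and 1404 to 2148 on leaving out a library. For epiblast against ICM they numbered 5324, and 1788 to 5257 on leaving out a library, lowest without epiblast replicate 1, where called transporters went from 5 to 2. In diapaused ICM against epiblast they numbered 6113, and 2539 to 6351. The range of called transporters on leaving out a library was 3 to 4 in the first comparison, 2 to 5 in the second and 5 to 7 in the third. Fewer samples enter these fits.

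Scaling moved the balance of all genes. In diapaused ICM against ICM, 1331 higher and 1029 lower became 862 and 1480 at the same total and 856 and 1696 without 8 abundant genes, and the median of all genes moved from 0.00 to -0.20 and -0.23. The median of the transporters then was 0.37 and 0.33. For epiblast against ICM, 2963 and 2361 became 1537 and 2746, and 1930 and 2594, with the median of all genes going from 0.14 to -0.07 and 0.01.

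Signs reversed for transporters and relatives that were not called. In diapaused ICM against ICM, Slc7a7 was -0.029 at the same total, -0.056 without abundant genes and -0.061 to 0.39 on leaving out a library. Slc1a3 ranged from -1.46 to 0.84 and Slc1a7 from -0.25 to 0.16, with 0.080 at a pseudocount of 0.1. In epiblast against ICM, Slc1a4 was -0.12 at the same total, -0.045 without abundant genes, -0.026 after quantile normalization and -0.12 to 0.26 on leaving out a library. There Slc7a11 was -0.13, -0.029 and -0.31 to 0.59, Slc1a5 was -0.023 at the same total and -0.17 to 0.73, Slc3a2 -0.45 to 0.40 and Slc7a14 -0.83 to 0.29. In diapaused ICM against epiblast, Slc1a2 was 0.056 with the replicate block and -0.30 to 0.14 on leaving out a library, Slc7a11 -0.64 to 0.26 and Slc7a14 -0.80 to 0.32.

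A pseudocount of 5 lowered the sizes for low genes: Slc7a2 in diapaused ICM against ICM was 1.25 and Slc1a4 0.97, and at a pseudocount of 0.1 they were 2.36 and 2.20.

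The replicate numbers were not used as a pairing in the main fit. Deviations of same-numbered ICM and diapaused ICM libraries correlated at 0.0175, 0.103 and 0.131, and those of differently numbered ones at -0.148 to 0.033. Diapaused ICM replicates 2 and 3 correlated best with the same-numbered ICM library, and replicate 1 with ICM replicate 3 (0.0229). All these values were low, and whether the numbers pair the libraries is not known. With the replicate number as a block, called genes were 2004, 4475 and 5314 in the 3 comparisons and the called transporters 3, 5 and 7, with no transporter's call changed.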

Other observations

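Genes that sense amino acids and pass the signal to mTOR gave 3 higher and 1 lower of 26 tested in diapaused ICM against ICM, and 3 and 3 at the same total of all libraries. Rragd, a Rag GTPase subunit, rose from 5.27, 1.80 and 2.90 in ICM to 26.5, 15.9 and 17.1 in diapaused ICM (2.31 ± 0.32 on the log2 scale, adjusted p = 0.00212), and Sesn2, the leucine sensor sestrin, rose by 1.33 ± 0.20 (adjusted p = 0.00314). Sec13, a GATOR2 subunit, was the gene that fell (-1.06 ± 0.21, adjusted p = 0.012). Lamtor2 was lower in epiblast than in ICM (-1.61). Rragd was also higher in epiblast than in ICM (3.21 ± 0.36), while Sesn2 was not called there. In diapaused ICM against epiblast 4 were higher and 5 lower.

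Of 16 genes of arginine, ornithine and polyamine use, 3 rose and 2 fell in diapaused ICM against ICM, and 2 and 4 at the same total. Oat, which interconverts ornithine and glutamate, was at 2.12, 1.05 and 1.38 in ICM and 16.2, 6.82 and 12.6 in diapaused ICM (2.31 ± 0.31, adjusted p = 0.00171). Sms, spermine synthase, was at 110.6, 86.1 and 114.7 in ICM and 15.1, 10.4 and 12.0 in diapaused ICM (-2.96 ± 0.22, adjusted p = 9.8e-05). Epiblast against ICM gave 2 higher and 0 lower (4 and 3 unadjusted). Odc1, the first enzyme of polyamine synthesis, was higher there by 0.98 ± 0.21 (adjusted p = 0.00969), a call lost without epiblast replicate 1. The Odc1 call was also lost at the same total of all libraries (0.68, adjusted p = 0.0625). Diapaused ICM against epiblast gave 4 higher and 4 lower.

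Of 20 genes of glutamine, serine and branched-chain amino acid use, 2 rose and 2 fell in diapaused ICM against ICM, and 0 and 3 at the same total. Epiblast against ICM gave 2 higher and 5 lower, with Tdh, threonine dehydrogenase, lower (-2.16 ± 0.39, adjusted p = 0.00451). Diapaused ICM had 7 higher and 3 lower than epiblast, with glutamine synthetase, Glul, at 148.3 to 153.3 against 46.8 and 57.8 (1.51 ± 0.27, adjusted p = 0.00337).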
